A study of Mus musculus with 16 samples.

Results

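Ctla4, Tigit and Icos encode receptors that set how strongly a CD4 T cell responds to its antigen. They were taken by symbol from the deposited expression table, as 3 of the 8551 genes that the table names. All 3 were joined to read values and tested, among 6411 named genes that passed the filter on low values. CTLA-4 and ICOS are relatives of the costimulatory receptor CD28. CTLA-4 competes for the B7 ligands CD80 and CD86 and thereby damps costimulation, and it cycles between endosomes and the surface. ICOS binds its own ligand, encoded by Icosl, and delivers a costimulatory signal through PI3 kinase that supports follicular helper and other effector T cells. TIGIT is an inhibitory receptor of the nectin family that binds the poliovirus receptor, encoded by Pvr, in competition with the activating receptor CD226. All 3 are induced by activation and are also high in regulatory T cells.

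The 16 libraries came from highly purified CD4 T cells of C57BL/6 J mice that were 2 months old and carried Rosa26-CreERT2 +/- and Sin3AF/F, so floxed alleles of the corepressor gene Sin3a and a tamoxifen-activated Cre were present in every group. Cells were held in IL7 for 6 days without tamoxifen (sufficient IL-7 cells) or with tamoxifen to silence Sin3a (deficient IL-7 cells). Others went on to 3 more days under Th17 polarizing conditions (sufficient and deficient Th17 cells). Each of the 4 groups held 4 libraries: BASAL955, BASAL957, BASAL959 and BASAL960 for sufficient and the BASALTAM libraries for deficient IL-7 cells, and the D3 and D3TAM libraries for sufficient and deficient Th17 cells. The same 4 numbers recur in each group, 1 of them for a female and 3 for males. The Rosa26 locus is active in most cell types, so Cre was not limited to a T cell subset. Tamoxifen was given to the deficient groups alone, so its own action and the loss of SIN3A cannot be told apart. The labels give both sexes in every group, so each group held more than 1 mouse. They do not say that all 4 libraries of a group came from separate mice. Each p-value below therefore speaks for library-to-library spread alone, part of which may be technical.

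Depth ranged from 19770807 to 28948634 restored reads per library. Cell type markers could be read only in part, because only genes listed as lower in deficient Th17 cells could be joined. Of 7 CD4 T cell markers 5 were joined and summed to between 27784 and 61393 normalized counts per library. Both CD8 T cell markers summed to at most 638 and 3 of 6 B cell markers to at most 337. The single myeloid marker joined, Cd68, reached at most 175. None of the 4 natural killer cell markers was joined, and they were not analysed here. Sin3a itself read 2213 to 2761 normalized counts in sufficient and 2148 to 2358 in deficient IL-7 cells, and 1892 to 2271 in sufficient and 1727 to 1827 in deficient Th17 cells. Its level fell by 0.24 on the log2 scale in Th17 cells (limma adjusted p = 0.0113), while the IL-7 change of -0.19 did not pass (limma adjusted p = 0.179). Which exons the floxed alleles remove is not given in the sources used here, so a count over the whole gene need not show the deletion. BASAL960, a library of sufficient IL-7 cells, stood apart from its group, with a median correlation of 0.977 with the other libraries of the group against 0.989 to 0.990 for those. It was also the highest of the 4 for Ctla4, Tigit and Icos, so the receptors' results that use the group are also given without it.

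Promoters were sought for all 3 genes, and those of Ctla4 and Tigit are shown because no Icos entry was available. The sequences are from RefSeq on GRCm38.p6, a later build than the one the submitters name for their alignment, and 2 of the 3 genes matched. Each run is the 250 bases upstream of the annotated start on the gene's own strand: chr1:60908775-60909024 on the plus strand for Ctla4, and chr16:43664185-43664434 on the minus strand for Tigit. On chromosome 1 of that build, Icos is the next protein-coding gene after Ctla4. Capitals mark matches, on either strand, to GGAAA, the core letters bound by NFAT and by Rel factors.
Ctla4: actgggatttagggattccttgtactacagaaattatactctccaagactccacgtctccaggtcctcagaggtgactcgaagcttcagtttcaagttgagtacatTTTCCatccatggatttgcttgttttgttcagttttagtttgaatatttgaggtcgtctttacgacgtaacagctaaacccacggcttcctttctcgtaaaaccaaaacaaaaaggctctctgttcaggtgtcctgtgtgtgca
Tigit: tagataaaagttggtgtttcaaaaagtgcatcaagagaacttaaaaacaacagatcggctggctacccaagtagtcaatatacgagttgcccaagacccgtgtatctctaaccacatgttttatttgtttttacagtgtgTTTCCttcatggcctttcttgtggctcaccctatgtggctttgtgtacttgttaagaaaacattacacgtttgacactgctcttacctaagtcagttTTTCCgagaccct
The Ctla4 window held 1 match and the Tigit window 2, all on the opposite strand and so printed as TTTCC. Of 32851 promoter windows of this length in the table, 55.6% held at least 1 match, so its presence does not set these genes apart. The AP-1 letters TGANTCA were in neither window (6.75% of all windows held them), nor were the STAT letters TTCNNNGAA (7.02% of all windows). The 3 motifs do not overlap one another in these windows.

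All 3 genes were higher in sufficient Th17 than in sufficient IL-7 cells. The Th17 cells also had 3 more days of culture, so the polarizing conditions and the added time cannot be told apart, here or in deficient cells. Ctla4, the inhibitory B7 receptor, read 596, 601, 700 and 804 normalized counts in BASAL955, BASAL957, BASAL959 and BASAL960. In D3955, D3957, D3959 and D3960, the sufficient Th17 libraries, it read 16275, 13370, 12829 and 15065. Every Th17 library was above every IL-7 library, and the change was 4.42 on the log2(normalized count + 1) scale (SE 0.21, 95% confidence interval 3.97 to 4.86, limma adjusted p = 9.4e-12, n = 4 against 4), or 21.3-fold. Without BASAL960 it was 4.50. Of the 13877 rows tested, 180 rose more.

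Tigit, the inhibitory nectin receptor, was far less abundant in reads, with 34.4, 48.3, 31.2 and 59.2 normalized counts in the sufficient IL-7 libraries, in the same order. It read 282, 243, 254 and 581 in the sufficient Th17 libraries. The groups did not overlap, and 3 of the 4 Th17 values lay close together with D3960 far above them. The log2 change was 2.89 (SE 0.34, interval 2.17 to 3.61, limma adjusted p = 5.8e-07), or 7.42-fold. Without BASAL960 it was 3.06.

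Icos, the costimulatory receptor, read 1536, 2196, 2369 and 3779 normalized counts in the sufficient IL-7 libraries. It read 12347, 13399, 13985 and 14294 in the sufficient Th17 libraries. Again the groups did not overlap, with a log2 change of 2.52 (SE 0.19, interval 2.12 to 2.93, limma adjusted p = 2.5e-09), or 5.75-fold. Without BASAL960 it was 2.75. All 3 receptors therefore rose, in a comparison in which 36.1% of all rows did and 31.7% had Th17 libraries wholly above the IL-7 ones. Bulk libraries cannot tell fewer cells of a type from less RNA per cell, here or in the results that follow.

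**Figure D1:**
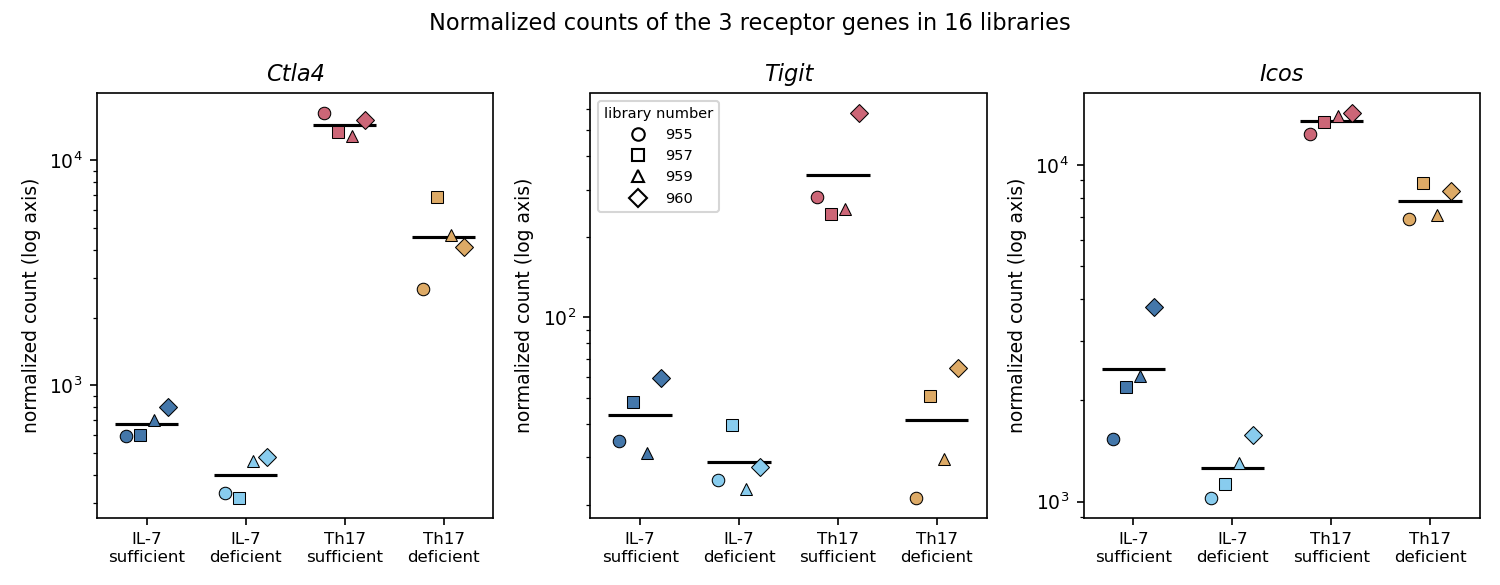
Normalized count (log axis) of Ctla4, Tigit and Icos in each of the 16 libraries, by group, with symbols for the library number and a black line at the mean of the group. The Tigit mean of 41.6 in deficient Th17 cells lies within the IL-7 range, while Ctla4 (4588) and Icos (7810) stay well above it.

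In deficient cells the rise on polarization differed between the genes. Ctla4 went from 333, 314, 463 and 481 normalized counts in the deficient IL-7 libraries to 2673, 6908, 4645 and 4126 in the deficient Th17 libraries, a log2 change of 3.47 (SE 0.21, limma adjusted p = 1.2e-10). D3TAM955 was the lowest of the deficient Th17 libraries and D3TAM957 the highest. Icos went from 1022, 1127, 1305 and 1580 to 6894, 8867, 7116 and 8364, a log2 change of 2.64 (SE 0.19, limma adjusted p = 1.1e-09).

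Tigit went from 24.7, 39.6, 22.9 and 27.7 normalized counts in the deficient IL-7 libraries to 21.1, 50.8, 29.7 and 64.6 in the deficient Th17 libraries. The groups overlapped, and the log2 change of 0.42 did not pass (SE 0.34, 95% confidence interval -0.30 to 1.14, limma adjusted p = 0.264). It was 0.17 without D3TAM960 and 0.28 without D3TAM957, and 0.69 without D3TAM955 (limma adjusted p = 0.0669). So 2 of the 3 receptors rose here, with no overlap, against 38.3% of all rows called higher and 36.8% without overlap. The 2 polarization comparisons use different libraries from each other, and each shares its libraries with the deletion comparisons.

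The order of group means was the same for Ctla4 and Icos: deficient IL-7, sufficient IL-7, deficient Th17 and sufficient Th17 cells. For Ctla4 these means were 398 ± 86.4, 675 ± 98.2, 4588 ± 1757 and 14385 ± 1580 normalized counts (SD, n = 4), and no neighbouring groups overlapped. For Icos they were 1259 ± 244, 2470 ± 944, 7810 ± 956.7 and 13506 ± 857 (SD, n = 4), and only the 2 IL-7 groups overlapped. For Tigit the order was deficient IL-7 (28.7 ± 7.51), deficient Th17 (41.6 ± 19.8), sufficient IL-7 (43.3 ± 12.9) and sufficient Th17 cells (340 ± 161, SD, n = 4). The 3 lower Tigit groups overlapped with their neighbours, and the highest stood clear of them.

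In Th17 cells all 3 genes were lower in the deficient libraries, and no deficient library reached a sufficient one for any of them. Tigit was at 12.2% of its sufficient level (log2 change -3.03, SE 0.34, 95% confidence interval -3.75 to -2.31, limma adjusted p = 1.2e-06), and 57 of the 13877 rows fell more. Ctla4 was at 30.3% (log2 change -1.72, SE 0.21, interval -2.17 to -1.28, limma adjusted p = 3.0e-06), with 455 rows falling more. Icos was at 57.6% (log2 change -0.80, SE 0.19, interval -1.20 to -0.39, limma adjusted p = 0.00197), with 1853 rows falling more.

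Of all rows, 27.7% were called lower in this comparison and 23.2% had deficient libraries wholly below sufficient ones. Only genes that the authors list as lower in deficient Th17 cells carry names, so the naming sets the direction of every named gene here and nothing is read from the count of 3. The authors' deposited table gives log2 fold changes of -3.03 for Tigit, -1.65 for Ctla4 and -0.79 for Icos. Those values also served to find the rows, so they are no separate support for the sizes.

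In IL-7 cells Icos was lower in deficient cells by a log2 change of -0.92 (SE 0.19, 95% confidence interval -1.32 to -0.51, limma adjusted p = 0.0104), although the highest deficient library (1580) passed the lowest sufficient one (1536). Ctla4 was lower by -0.78 (SE 0.21, interval -1.22 to -0.33, limma adjusted p = 0.0428) with no overlap. Tigit changed by -0.56 (SE 0.34, interval -1.28 to 0.16, limma adjusted p = 0.413) and did not pass, with an interval that still holds a fall of more than 1 log2 unit. The groups overlapped, while within each of the 4 numbers the deficient library was below the sufficient one for Tigit, as for Ctla4 and Icos. With the numbers as a block Tigit did not pass either (limma adjusted p = 0.203). Thus 2 of 3 receptors fell, against 2.73% of all rows and 4.20% of named rows, and Ctla4 was among the 7.05% of rows with deficient libraries wholly below sufficient ones.

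These IL-7 calls were not firm. The Ctla4 call was lost in 16 of 27 alternatives, with unchanged direction. Among single libraries it was lost without BASAL957, BASAL959 or BASAL960, without BASALTAM955, BASALTAM957 or BASALTAM959, without D3957, D3959 or D3960, or without D3TAM959 or D3TAM960. The D3 and D3TAM libraries are not in this comparison and enter only through the shared spread and the adjustment. Leaving out any of them kept the Ctla4 change at -0.78, and the lost calls had limma adjusted p from 0.0512 to 0.0570. The fit on only the 2 IL-7 groups gave limma adjusted p = 0.0273. Without BASAL960 the Ctla4 change was -0.69 (limma adjusted p = 0.106). The Icos call held without any single library, at -0.69 without that same library (limma adjusted p = 0.0139), and was lost without all 4 libraries that share the number of BASAL957, where the limma adjusted p was 0.150, and likewise for BASAL959, where the limma adjusted p was 0.0931. For Tigit the restored value of 59.2 in BASAL960 rests on 70 reads. The next-best reading of the deposited digits gives 7 reads (5.92 normalized counts, below BASALTAM960), and with it the Tigit change is 0.22 (limma adjusted p = 0.869). Without BASAL960 the Tigit change was -0.40 (limma adjusted p = 0.664).

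**Figure D2:**
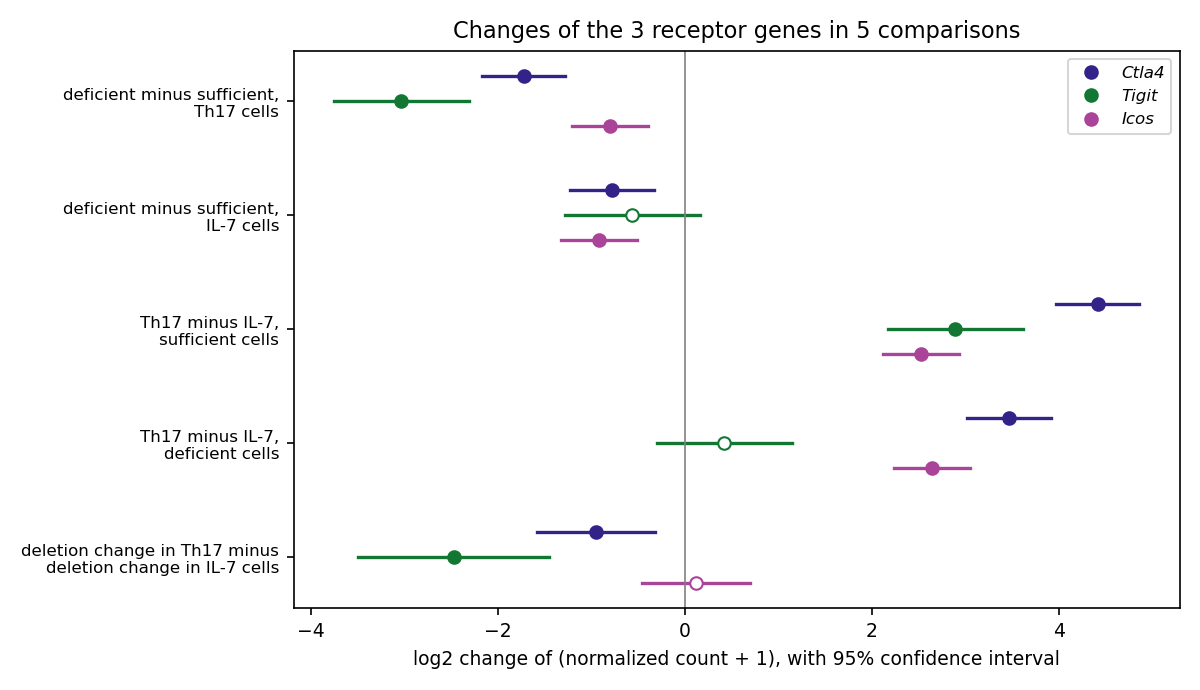
Log2 change of (normalized count + 1) with its 95% confidence interval for Ctla4, Tigit and Icos in the 5 comparisons, with filled points where the limma adjusted p is under 0.05. The Tigit interval reaches no higher than -2.31 for the deletion in Th17 cells and includes 0 for the deletion in IL-7 cells.

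The size of the deletion change between stages was tested directly. For Tigit the Th17 change was more negative than the IL-7 change by -2.47 on the log2 scale (SE 0.48, 95% confidence interval -3.49 to -1.45, limma adjusted p = 7.9e-04), and 94 rows had a more negative difference. Without BASAL960 it was -2.63. For Ctla4 the difference was -0.95 (SE 0.30, interval -1.58 to -0.31, limma adjusted p = 0.0191), and -1.03 without BASAL960. That call held without any single library and was lost without all 4 libraries that share the number of BASAL955 (-0.67, limma adjusted p = 0.0709), BASAL959 (-0.97, limma adjusted p = 0.0758) or BASAL960 (-0.88, limma adjusted p = 0.0716). For Icos the difference was 0.12 (SE 0.27, interval -0.45 to 0.70, limma adjusted p = 0.757), and it was -0.11 without BASAL960. So 2 of the 3 receptors had a more negative change at Th17, against 17.6% of all rows and 34.9% of named rows. Naming by a fall in Th17 cells favours that direction among named rows, the receptors included.

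Whether the receptors were reduced to unequal degrees was tested inside each library, where the log2 ratio of 2 genes needs no scaling. A ratio also holds the genes' lengths, so only its difference between groups is read. In sufficient Th17 libraries the log2 ratio of Tigit to Icos was -5.44, -5.78, -5.78 and -4.62, and in deficient ones -8.29, -7.42, -7.86 and -6.99. The mean moved by -2.23. The ratio of Tigit to Ctla4 moved by -1.31, from -5.49 ± 0.54 to -6.80 ± 0.56 (SD, n = 4). The ratio of Ctla4 to Icos moved by -0.93, from 0.09 ± 0.22 to -0.84 ± 0.44 (SD, n = 4).

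In each of these 3 Th17 comparisons all 4 deficient libraries were below all 4 sufficient ones. The exact two-sided permutation p was 0.0286 each, the smallest that 4 against 4 libraries can give, and 0.0571 after Benjamini-Hochberg adjustment over the 6 ratio tests, so none passed after adjustment. In IL-7 cells the ratios moved by 0.22 for Tigit to Ctla4 (exact permutation p = 0.543), 0.36 for Tigit to Icos (exact permutation p = 0.286) and 0.14 for Ctla4 to Icos (exact permutation p = 0.486), with adjusted values from 0.429 to 0.543. The groups overlapped in all 3.

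**Figure D3:**
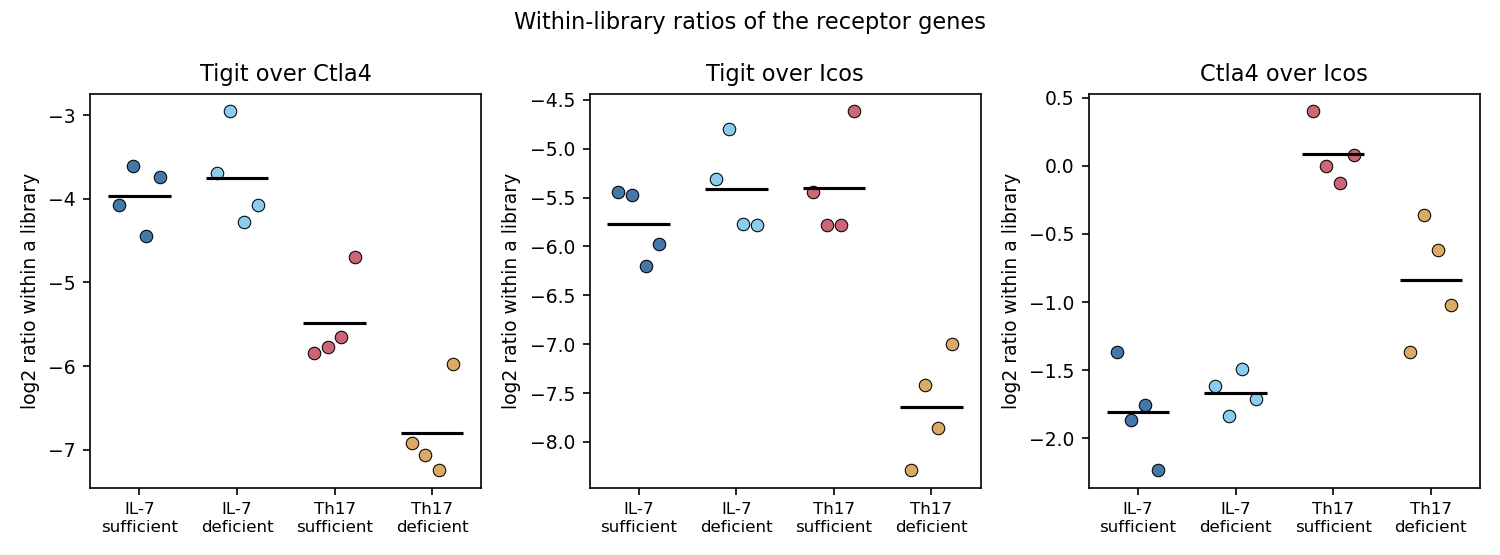
Log2 ratio of 2 receptor genes within each library, by group, with a black line at the group mean. For each pair the deficient Th17 libraries lie wholly below the sufficient Th17 libraries, and the 2 IL-7 groups overlap.

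Among other genes of the CD28 family and the B7 ligands, 7 of 13 were tested, Ctla4 and Icos included. In Th17 cells 4 were called lower, with a median log2 change of -0.80, which is the value of Icos itself. For all named genes the median was -0.40, and 55.2% were lower. The naming sets this direction, so nothing is read from the absence of higher genes. Icosl, the ICOS ligand, fell from a mean of 29.6 to 9.77 normalized counts (log2 change -1.41, limma adjusted p = 0.0081). Cd274, which encodes the ligand PD-L1, fell by 0.64 (limma adjusted p = 0.0407). The Icosl call was lost in 2 of 27 alternatives and the Cd274 call in 9. For Cd274 these include leaving out D3TAM955 or D3TAM959, or D3957, D3959 or D3960, with a limma adjusted p between 0.0581 and 0.135.

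In IL-7 cells 3 of these 7 genes were lower: Ctla4, Icos and Pdcd1lg2, the gene of the ligand PD-L2, which is named after its values were seen. Of all rows 2.73% were called lower there, and of named rows 4.20%. Ctla4 and Icos are the receptors already counted above, and the Ctla4 call was not firm. Pdcd1lg2 was at 52.2 ± 37.6 normalized counts (SD, n = 4) in sufficient IL-7 cells and changed by -1.97 (SE 0.39, limma adjusted p = 0.0073) in deficient ones. Its Th17 change was -0.25 (limma adjusted p = 0.605), and the difference between stages was 1.72 (limma adjusted p = 0.0204), opposite in sign to that of Ctla4. Without BASAL960 the IL-7 change was -1.56 and the difference 1.30, both still called. Both calls were lost without all 4 libraries that share the number of BASAL955 (limma adjusted p = 0.0760 and 0.158) or of BASAL957 (limma adjusted p = 0.0524 and 0.0531). The list's IL-7 median was -0.78, which is the value of Ctla4 itself, beside -0.05 for all named genes.

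Of 11 nectin-binding receptors and ligands, 4 were tested, Tigit included. In deficient Th17 cells 3 were lower, Tigit among them, with a median of -1.46. Of named rows, whose direction the naming sets, 55.2% were lower with a median of -0.40. Pvr, the principal TIGIT ligand, fell from 1365 ± 195 to 372 ± 86.3 normalized counts (SD, n = 4; log2 change -1.89, limma adjusted p = 1.9e-08). Cd226, the activating receptor that shares this ligand with TIGIT, fell from 391 ± 34.5 to 213 ± 47.6 (SD, n = 4; log2 change -0.89, limma adjusted p = 1.4e-04). In IL-7 cells none of the 4 passed, with Pvr at -0.18 (limma adjusted p = 0.570). The Pvr change was more negative in Th17 cells by -1.72 (limma adjusted p = 1.2e-05), as that of Tigit was. On polarization Pvr rose in sufficient cells (log2 change 0.85) and fell in deficient cells (-0.87), while Cd226 fell in both (-1.19 and -1.73).

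Of 14 other inhibitory receptors, 5 were tested and 1 was lower in Th17 cells, with a median of -0.40, the same as for all named genes, of which 55.2% were lower. It was Lair1, a collagen receptor with inhibitory motifs, which fell from 72.9 ± 21.7 to 29.1 ± 9.84 normalized counts (SD, n = 4; log2 change -1.31, limma adjusted p = 2.3e-04). None of the 5 passed in IL-7 cells.

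Of 16 genes that signal below these receptors, 9 were tested, and 6 were lower in Th17 cells and none in IL-7 cells. The Th17 median was -0.33 and the IL-7 median 0.02. The Th17 count is near the 55.2% of named rows that were lower, and its median is less negative than their -0.40. The changes were small beside those of Tigit and Ctla4. Pik3cb, a catalytic subunit of PI3 kinase, fell by 0.60, and Lck, the proximal T cell receptor kinase, fell by 0.48. Ppp2ca, the catalytic subunit of the phosphatase PP2A, fell by 0.42 and Inpp5d, the lipid phosphatase SHIP1, fell by 0.36. Of 9 genes for CTLA-4 trafficking, 4 were tested and 3 were lower in Th17 cells, with none in IL-7 cells and medians of -0.34 and -0.02, again beside 55.2% and -0.40 for named rows in Th17 cells. Lrba, which protects CTLA-4 from lysosomal breakdown, fell by 0.48 (limma adjusted p = 0.0136), Rab11b by 0.39 and Arf1 by 0.28, both small GTPases of vesicle traffic. The Lrba call was lost in 4 of 27 alternatives (limma adjusted p from 0.0519 to 0.121), among them without D3960 (limma adjusted p = 0.0588).

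Of 19 transcription and RNA-binding factors known to act on these receptor genes, 9 were tested, and 5 were lower in Th17 cells (median -0.42) and none in IL-7 cells (median -0.14). That Th17 share and median are close to those of named rows as a whole, 55.2% and -0.40. Prdm1, the gene of the repressor Blimp-1, fell by 1.11 (limma adjusted p = 3.1e-04). Bcl6, the factor of follicular helper cells, fell by 0.66, Ikzf2, which encodes Helios, by 0.65, and Ets1 by 0.46. The Ets1 call was lost in 3 of 27 alternatives (limma adjusted p up to 0.0992), among them without D3TAM955 (limma adjusted p = 0.0564). That of Ikzf2 was lost in 1 of 27 (limma adjusted p = 0.0548). Batf, an AP-1 partner that rises with activation, changed by -0.42 in Th17 cells (limma adjusted p = 0.0509) and is named after its values were seen.

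Regulatory T cells carry high levels of all 3 receptors, so their other genes were read beside them. Of 13 genes of that list, 7 were tested and all 7 were lower in Th17 cells, with a median of -1.26, beside 55.2% and -0.40 for named rows, whose direction the naming sets. Tnfrsf4 (OX40) had a log2 change of -1.74, Lrrc32 (GARP) of -1.73, Tnfrsf18 (GITR) of -1.72 and Itgae (CD103) of -1.26. Ikzf2 counts in this list as well. The Th17 call of Itgae was lost in 2 of 27 alternatives (limma adjusted p up to 0.0619). The Il2ra call (log2 change -0.59, limma adjusted p = 0.0400) was the least firm, being lost without any 1 of D3955, D3957, D3959, D3960, D3TAM955, D3TAM959 and D3TAM960, with a limma adjusted p of up to 0.104. In IL-7 cells 3 of the 7 were lower, against 4.20% of named rows, with a median of -0.56. They were Itgae (-1.91, limma adjusted p = 0.0049), Il2ra (-1.15, limma adjusted p = 0.0086) and Tnfrsf18 (-0.56, limma adjusted p = 0.0356). Without BASAL960 the Itgae change was -1.58 and the Il2ra change -0.86, both still called. The Itgae call was lost without all 4 libraries that share the number of BASAL959 (limma adjusted p = 0.0729), and the Il2ra call in 3 of 27 alternatives (limma adjusted p up to 0.127). The Tnfrsf18 call was lost without BASAL955, BASAL957, BASAL960, BASALTAM955, BASALTAM957 or BASALTAM959 (limma adjusted p from 0.0567 to 0.111).

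The change was more negative in Th17 than in IL-7 cells for Tnfrsf4 (difference -1.47, limma adjusted p = 5.8e-05) and Tnfrsf18 (-1.16, limma adjusted p = 3.8e-04), as for Tigit and Ctla4. The summed level of the 3 regulatory T cell markers joined of 5 (Il2ra, Ikzf2 and Tnfrsf18) ranged from 55627 to 59973 normalized counts in sufficient and from 29895 to 44335 in deficient Th17 cells. In IL-7 cells it ranged from 8584 to 16034 in sufficient and from 5193 to 7528 in deficient libraries. Il2ra made up most of the sum in Th17 cells, with means of 48949 in sufficient and 32908 in deficient ones. Foxp3 and Nrp1 were the markers not joined. On polarization of sufficient cells Ikzf2 fell (log2 change -0.44, limma adjusted p = 0.0364), while Il2ra and Tnfrsf18 rose. The sum is therefore no measure of regulatory T cells. The 5 CD4 T cell markers joined summed to 47211 to 50830 in sufficient and 27784 to 31994 in deficient Th17 cells, and to 54476 to 61393 and 50066 to 55048 in the IL-7 groups. The 2 CD8 T cell markers summed to 231 to 519 in sufficient and 113 to 196 in deficient Th17 cells. Only genes listed as lower in deficient Th17 cells could be joined, so the naming sets the direction of all these sums between the Th17 groups. The part of these markers in the receptor results was not tested.

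**Figure D4:**
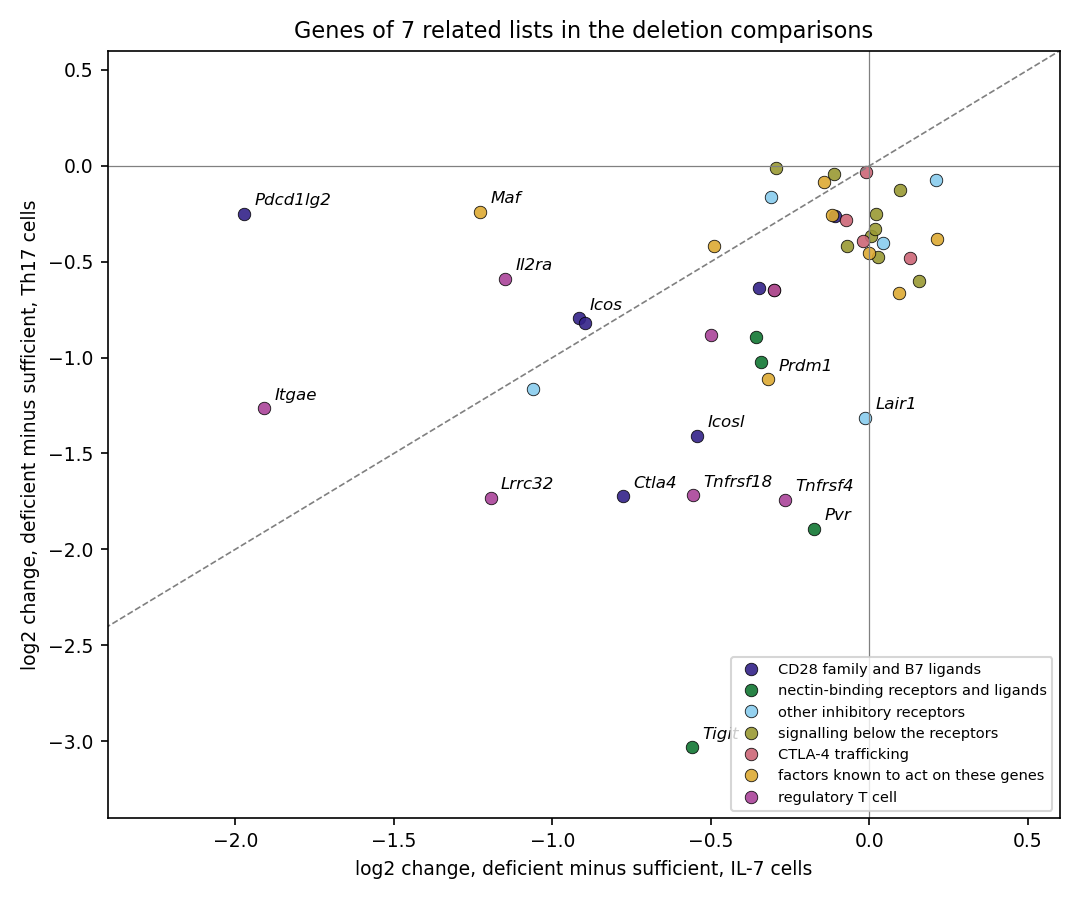
Log2 change between deficient and sufficient cells in IL-7 cells (horizontal) and in Th17 cells (vertical) for each tested gene of the 7 lists, with a dashed line where both are equal. Tigit, Pvr, Lair1, Tnfrsf4 and Tnfrsf18 lie far below the line, Icos lies close to it, and Pdcd1lg2 lies above it.

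Among 6410 other named genes tested, likeness to each receptor was taken as the Pearson correlation of log2 values over the 16 libraries, a description without a test. The points share the same 4 groups and libraries, and all candidates are genes listed as lower in deficient Th17 cells. Most like Ctla4 were Hemk1 (r = 0.991), Arf1 (0.989), Scrt1 (0.989), the AP-1 gene Fosl2 (0.989) and Ggta1 (0.988). Fosl2 had group means of 239, 200, 10147 and 2780 normalized counts in sufficient IL-7, deficient IL-7, sufficient Th17 and deficient Th17 cells.

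Most like Tigit were Pkib (r = 0.967), which encodes an inhibitor of protein kinase A, Csnk1a1 (0.960), Lman2 (0.959), Gm16712 (0.959) and the cAMP-responsive factor gene Crem (0.958). Pkib had group means of 42.8, 29.9, 238 and 37.2 normalized counts in the same order of groups, and Crem 385, 313, 3150 and 528. Both were thus low in 3 groups and high in sufficient Th17 cells.

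Most like Icos were the IL-2 receptor gene Il2ra (r = 0.994), the desaturase gene Scd2 (0.993), D030056L22Rik (0.991), Gpsm2 (0.990) and Shroom3 (0.989). Il2ra had group means of 6361, 2759, 48949 and 32908 normalized counts in the same order. Among the receptors, Ctla4 and Icos had a correlation of 0.977, Ctla4 and Tigit of 0.787, and Tigit and Icos of 0.742.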

How the data were processed

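Polyadenylated RNA of 16 libraries was sequenced with a strand-specific kit, per the labels' protocols. Trim Galore 0.4.4, STAR 2.6, featureCounts, edgeR, DESeq2 and mouse build NCBIM37 are named in the submitters' processing notes, with no settings. The deposited table holds 1 score per gene and library, counts divided by a library's size factor whose decimal points were lost. Per the file headers it also gives the authors' log2 fold change with its standard error and the authors' adjusted p-value, for 8551 named genes, all with negative log2 fold changes. Gene names are not on the rows of their values.

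The values of a library are whole reads times 1 step, so digits gave the reads up to a power of 10, which the other libraries of the group settled (posterior at least 0.95), or, for named genes in Th17 libraries, the join below. This raised 2 values of Ctla4, 1 of Tigit and 2 of Icos. Of 17850 rows 14872 were settled, and 9.49% of values above 0 were raised by a power of 10. A name was joined to the row that returned the authors' log2 fold change within 1e-06 with every other row at least 20 times farther: 7620 of 8551 genes, and 7 of 1000 decoys. On simulated data, reads came back exactly in 99.9% of settled rows, and the join found the right row for 991 of 1000 genes and a wrong one for 0. The simulated fold changes were made with the formula that the join inverts, so these figures test the search alone. Simulated reads also spread less than the restoring step assumes, so real rows with wide spread may be harder to restore.

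Settled rows with a mean of at least 10 normalized counts (13877) were fitted with limma 3.58.1 in R 4.3.3 on log2(normalized count + 1), which understates changes of low genes, with 4 group means over all libraries and Benjamini-Hochberg adjustment over all rows at 0.05. In data simulated for the Th17 deletion comparison (13860 rows), 94.0% of 2-fold and 100% of 4-fold changes were called, with 8 false calls. All simulated rows had the same relative spread and no effect of library number, and few of them changed. These figures therefore need not hold for the real data, where spread differed between genes, nor for Tigit. Ratios of receptors were tested with exact two-sided permutation tests (scipy 1.17.1). Libraries with the same number deviated together in the IL-7 deletion comparison (correlations 0.142 to 0.485). This was not so in every pair of the Th17 one (0.0386 to 0.217). The main fit and the ratio tests did not pair libraries by number, and the replicate block was run as an alternative only.

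Named were the 3 receptors, up to 4 called genes per list with the largest Th17 deletion change, and 5 genes most like each receptor. Batf, Pdcd1lg2, Ppp2r1a and Rc3h2 were named beside these after their values were seen. The receptors and lists were chosen with earlier results of these data known. Alternatives were another pseudocount, no filter, trimmed mean of M values scaling, a replicate block, only the groups compared, unsettled rows, and leaving out libraries. Limma voom on restored reads and the next-best reading of Tigit in BASAL960 were added after seeing the data.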

Additional observations from a re-analysis of the deposited data

Results flagged for a closer look

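The sufficient Th17 library D3960 read 581 normalized counts of Tigit, beside 243 to 282 in the other 3 libraries of the group. Its gap to the next library was 0.884 of the group's range, above Dixon's critical value for 4 libraries. The log2 ratio of Tigit to Ctla4 in the same library, -4.69, was apart from the others of its group in the same way (0.835 of the range). Of the 24 sets of 4 values checked, chance alone is expected to set about 1 in 20 apart. Without that library the Tigit deletion change in Th17 cells was -2.74 (limma adjusted p = 5.4e-06).

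The deletion change was more negative in Th17 than in IL-7 cells, by the test of that difference, for Tigit (-2.47) and Ctla4 (-0.95). The same held for the ligand gene Pvr (-1.72) and the receptor gene Lair1 (-1.30), and for the TNF receptor genes Tnfrsf4 (-1.47) and Tnfrsf18 (-1.16). Among signalling genes it held for Pik3cb (-0.76), Lck (-0.50), Inpp5d (-0.37), Ppp2ca (-0.35) and Ppp2r1a (-0.27). Among factors it held for Bcl6 (-0.76) and Rc3h2 (-0.59). Ppp2r1a and Rc3h2, named after their values were seen, were not followed through the alternatives. Among trafficking genes it held for Rab11b (-0.37). The Rab11b call was lost in 2 of 26 alternatives and those of Inpp5d and Ppp2ca in 1 each, with a limma adjusted p of up to 0.0913. The differences for Prdm1 (-0.79), Lrba (-0.61) and Arf1 (-0.21) passed narrowly and were lost in 19, 15 and 18 of 26 alternatives, among them 12, 12 and 13 that leave out 1 library. The difference for Pdcd1lg2 went the other way (1.72). In this comparison 17.6% of all rows and 34.9% of named rows had a more negative change at Th17. Naming by a fall in Th17 cells favours that direction among named rows.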

How the results depend on the processing

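The Th17 deletion changes of Ctla4, Tigit and Icos, the polarization changes and the Tigit difference between stages kept direction and side of the threshold in every alternative run, and the Tigit polarization change in deficient cells never passed. The planned count-model tests were not run, because the deposited values are not raw counts. For Ctla4 in IL-7 cells, limma voom gave -0.81 (limma adjusted p = 0.107), and leaving out libraries gave -0.88 to -0.67 (limma adjusted p from 0.0123 to 0.156). For Icos in IL-7 cells the fit on only the compared groups gave -0.92 (limma adjusted p = 0.0599), and leaving out libraries gave -1.12 to -0.69. The Ctla4 difference between stages ran from -1.25 to -0.67 without libraries, and that of Icos from -0.11 to 0.32, with -0.0004 without the 4 libraries of the number of BASAL960 and -0.11 without BASAL960 alone. The Tigit IL-7 change reversed to 0.22 with the next-best reading of BASAL960. The cause of these shifts was not tested.

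Called rows in the IL-7 deletion comparison numbered 694 and ran from 94 (without the 4 libraries of the number of BASAL957) to 801 when libraries were left out, with 205 without those of BASAL959, 400 without BASAL957 alone, 502 without BASAL960, and 354, 322 and 434 without BASALTAM955, BASALTAM957 and BASALTAM959. Those of the difference between stages numbered 5365 and ran from 3254 (without the 4 libraries of the number of BASAL957) to 5809. With the replicate block the IL-7 deletion comparison had 977 called rows and the Th17 one 8251 against 7906, and no receptor's call changed: Ctla4 in IL-7 cells was at limma adjusted p = 0.0353 and Icos at limma adjusted p = 0.0013. Of 24 pairs of libraries with the same number, 21 correlated best with their own number. With 3 against 3 libraries the ratio tests cannot go below an exact permutation p of 0.1, and the Th17 shifts kept their sign. Of 567 values of 21 other named genes, Il2ra included, in the Th17 deletion comparison, 536 kept their call, 31 lost it and 0 reversed, with Il2ra losing it in 10 of 27 alternatives. Tigit, at 21.1 to 64.6 normalized counts in 3 of the 4 groups, is the receptor whose values depth limits most.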
